A study of Homo sapiens with 13 samples.

Results

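The genes described here are the collagens and a set of matrix and cell-surface proteoglycans in PC3, an established line of human prostate cancer cells. They were taken from the raw count table by symbol: every gene named in the pattern COL, number, A, number, which gave 44 collagen genes, and 12 proteoglycans (BGN, DCN, LUM, VCAN, HSPG2, AGRN, SDC1, SDC2, SDC4, GPC1, GPC4 and GPC6). The 56 genes are part of 67882 gene identifiers in the table. Every group carried a short hairpin that targets TIMP1, whose product blocks matrix metalloproteinases, so the controls share it and no hairpin-free cells were analysed here. The treatments, each of 48 h, were Vehicle (3 libraries), Docetaxel at 1 nM (4 libraries), Adapalene at 5 µM (3 libraries) and Combo (3 libraries). Combo was both drugs together, and the labels restate no dose for it. Reading Combo against a single drug as the effect of the added drug, and reading the interaction, assumes the single-drug doses in Combo. Docetaxel belongs to the taxanes and locks microtubules in place, and adapalene is a retinoid drug that acts through the nuclear receptors for retinoic acid. The submitters describe the replicates as technical, so every p-value below measures only the spread between technical replicates. These are bulk libraries, in which fewer cells expressing a gene and less RNA per cell cannot be told apart.

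Collagens are triple helices of 3 chains, and some types combine chains from more than 1 gene. Type VI collagen combines the products of COL6A1, COL6A2 and a longer chain such as COL6A3, and the common type IV collagen combines COL4A1 with COL4A2. Fibrillar collagens make up banded fibres, type IV collagen makes the sheet of the basement membrane on which epithelial cells sit, type VI collagen makes beaded filaments beside it, and transmembrane collagens stay anchored in the cell surface. Proteoglycans are core proteins that carry long sulfated sugar chains. The perlecan (HSPG2) and agrin (AGRN) cores build into basement membranes, biglycan (BGN), decorin (DCN) and lumican (LUM) bind collagen fibres, and syndecans and glypicans hold heparan sulfate at the cell surface, where it binds growth factors.

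The libraries held 11948720 to 16235041 counts each. TIMP1, the target of the hairpin, stood at 55 to 65 CPM (counts scaled to the library total with TMM factors) in Vehicle, 56.2 to 71 in Docetaxel, 70.4 to 105 in Adapalene and 98.1 to 111 in Combo. It was thus higher in the groups with adapalene, with Adapalene replicate 3 inside the Docetaxel range. Its part in the results was not tested, and without hairpin-free cells its knockdown cannot be checked. The share of counts from mitochondrially encoded genes was 0.722% to 2.82%, and it was over 2% in 1 library of each group, replicate 4 of Docetaxel and replicate 3 of the others. Without these 4 libraries, 7 calls of the 28 members called in any comparison were lost and 17 were gained over the 7 comparisons. Those against Vehicle are given with each gene. Calls over all tested genes moved too, against Vehicle from 4082 to 4391 for Docetaxel, 2896 to 3552 for Adapalene and 4058 to 3288 for Combo. All 6 epithelial markers (KRT8, KRT18, KRT19, EPCAM, CDH1 and CLDN4) were measured, with summed levels of 3290 to 3770 CPM in Vehicle, 3380 to 4270 in Docetaxel, 2720 to 2910 in Adapalene and 2750 to 3440 in Combo. Of 4 fibroblast markers outside the genes described (PDGFRA, PDGFRB, THY1 and FAP), 1 passed the filter on low counts. That marker, FAP, passed only through Docetaxel, with 0, 0 and 0.124 CPM in Vehicle, 0.596 to 1.28 in Docetaxel (at most 18 counts in a library), 0.144 to 0.167 in Adapalene and 0 to 0.522 in Combo. The 4 summed to 0.496 to 0.568 CPM in Vehicle, 0.937 to 2.2 in Docetaxel, 0.645 to 1.01 in Adapalene and 0.798 to 1.19 in Combo. EPCAM and KRT18 fell with Adapalene by 0.50 each on the log2 scale (edgeR adjusted p = 0.000834 and 0.019). Of 6 leukocyte markers 2 passed the filter, with summed levels of 1.06 to 2.68 CPM in Vehicle, 6.26 to 8.11 in Docetaxel, 2.8 to 4.42 in Adapalene and 4.72 to 7.46 in Combo. ITGAM, an integrin chain of myeloid cells, was at 0.142 to 0.942 CPM in Vehicle, 4.41 to 5.99 in Docetaxel, 0.807 to 1.92 in Adapalene and 2.3 to 4.03 in Combo. It rose by 3.17 on the log2 scale with docetaxel (edgeR adjusted p = 6.08e-05) and by 2.32 with Combo (adjusted p = 0.00149). PTPRC, the general leukocyte marker, rose with Combo (1.14, edgeR adjusted p = 0.0128) and was at 0.48 with docetaxel (adjusted p = 0.257). CD3E, which defines T cells, had at most 1 count in a library. Of 5 endothelial markers (PECAM1, CDH5, VWF, KDR and TEK) 3 were tested. The 5 summed to 12.6 to 19.1 CPM in Vehicle, 11.5 to 15.6 in Docetaxel, 10 to 26.5 in Adapalene and 14.4 to 24.5 in Combo. By edgeR, 1 was called higher in Combo against Vehicle, 1 higher in Combo against Docetaxel, and 1 lower in Docetaxel against Adapalene. The part of these markers in the results below was not tested.

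Of the 56 genes, 39 passed the filter on low counts and were tested: 28 collagens and 11 proteoglycans. The other 17 were not measured, which at this depth means too few counts for a test and not absence. COL11A2 had no count in any library. The highest count in any library was 1 to 6 for COL22A1, COL23A1, COL6A5, COL10A1, COL19A1, COL6A6, DCN, COL25A1, COL9A1 and COL26A1. It was 10 to 15 for COL4A3, COL5A3, COL8A2, COL14A1, COL1A2 and COL20A1. The second chain of the usual type I collagen, COL1A2, was thus below the filter while COL1A1, the first chain, was measured, and decorin was below it while biglycan and lumican were measured.

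Promoter sequences are shown for 5 members that stand for the patterns described below: the proteoglycans BGN and HSPG2 and the collagen COL5A1, which were higher with adapalene, GPC1, which was lower with docetaxel alone, and COL4A5, which shares its start region with COL4A6. RefSeq windows (GRCh38.p14) matched 40 of the 56 genes, 29 of them among the tested. Each run reads 5′ to 3′ on the strand of its gene, covers up to 250 bases before the RefSeq start, and stops before any exon of the gene in GENCODE 29, which left out 41 bases for BGN and 29 for COL5A1. The BGN window is chrX:153494730-153494938 on the plus strand, HSPG2 chr1:21937311-21937560 on the minus strand, COL5A1 chr9:134641553-134641773, GPC1 chr2:240435413-240435662 and COL4A5 chrX:108439588-108439837, the last 3 on the plus strand. Capitals mark matches on either strand to any of 5 short motifs that were searched: the GC box GGGCGG, the CCAAT box CCAAT, the TATA box TATAAA, the AP-1 motif TGANTCA and AGGTCA, the core that retinoid receptors bind.
BGN: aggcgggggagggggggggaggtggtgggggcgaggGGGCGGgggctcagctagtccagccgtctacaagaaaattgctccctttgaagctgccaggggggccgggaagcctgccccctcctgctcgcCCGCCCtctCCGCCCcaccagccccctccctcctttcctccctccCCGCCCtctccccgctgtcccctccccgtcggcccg
HSPG2: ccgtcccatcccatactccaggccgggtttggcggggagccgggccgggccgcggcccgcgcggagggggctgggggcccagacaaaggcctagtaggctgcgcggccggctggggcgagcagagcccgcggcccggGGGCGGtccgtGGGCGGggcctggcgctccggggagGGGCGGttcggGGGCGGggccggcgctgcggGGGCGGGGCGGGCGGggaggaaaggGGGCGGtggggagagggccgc
COL5A1: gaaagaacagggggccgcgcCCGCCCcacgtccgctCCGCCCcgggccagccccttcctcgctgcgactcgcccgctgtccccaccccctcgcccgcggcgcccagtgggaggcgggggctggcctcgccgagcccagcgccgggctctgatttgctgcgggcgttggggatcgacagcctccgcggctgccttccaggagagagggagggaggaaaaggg
GPC1: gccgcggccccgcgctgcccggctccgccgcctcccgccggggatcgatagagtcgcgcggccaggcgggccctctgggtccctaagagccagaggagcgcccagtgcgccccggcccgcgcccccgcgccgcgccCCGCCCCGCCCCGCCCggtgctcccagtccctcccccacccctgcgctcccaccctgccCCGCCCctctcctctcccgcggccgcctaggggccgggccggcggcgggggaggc
COL4A5: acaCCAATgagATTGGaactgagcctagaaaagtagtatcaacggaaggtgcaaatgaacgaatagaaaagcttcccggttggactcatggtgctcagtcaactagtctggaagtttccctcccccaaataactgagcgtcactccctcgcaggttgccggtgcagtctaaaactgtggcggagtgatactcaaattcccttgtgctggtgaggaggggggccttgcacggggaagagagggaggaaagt
In these runs the GC box matched 4 times in BGN, 8 times in HSPG2, 2 times in COL5A1 and 4 times in GPC1, and some matches in HSPG2 and GPC1 overlap. COL4A5 held no GC box and 2 CCAAT matches. None of the 5 runs held the letters of the other 3 motifs. Over the 29 tested members with a window, the GC box was present in 22, against 42.5% of 34943 RefSeq windows of the same length. The CCAAT box was in 7 of the 29 (32.0% of all windows), the TATA box in 6 (10.8%), AGGTCA in 1, COL7A1 (12.1%), and the AP-1 motif in 0 (6.59%). A match is only a run of letters in this window.

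Levels were compared between genes per kilobase of exon, averaged over all libraries. The highest tested members were COL6A1 at 152 CPM per kilobase and COL6A2 at 129, followed by SDC4 at 90.5, AGRN at 67.1 and SDC1 at 43.0. COL6A3, the third chain of type VI collagen, stood at 16.6 on the same scale, and COL5A2, the highest fibrillar collagen, at 26.2. Type VI collagen genes took 57.4% ± 0.895 (SD, n = 3) of all collagen CPM in Vehicle and 57.2% ± 0.45 (n = 4) in Docetaxel. With the retinoid this share was 64.4% ± 0.578 (n = 3) in Adapalene and 64.9% ± 1 (n = 3) in Combo, and the lowest library with adapalene (63.8%) was above the highest without it (58.3%).

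**Figure D1:**
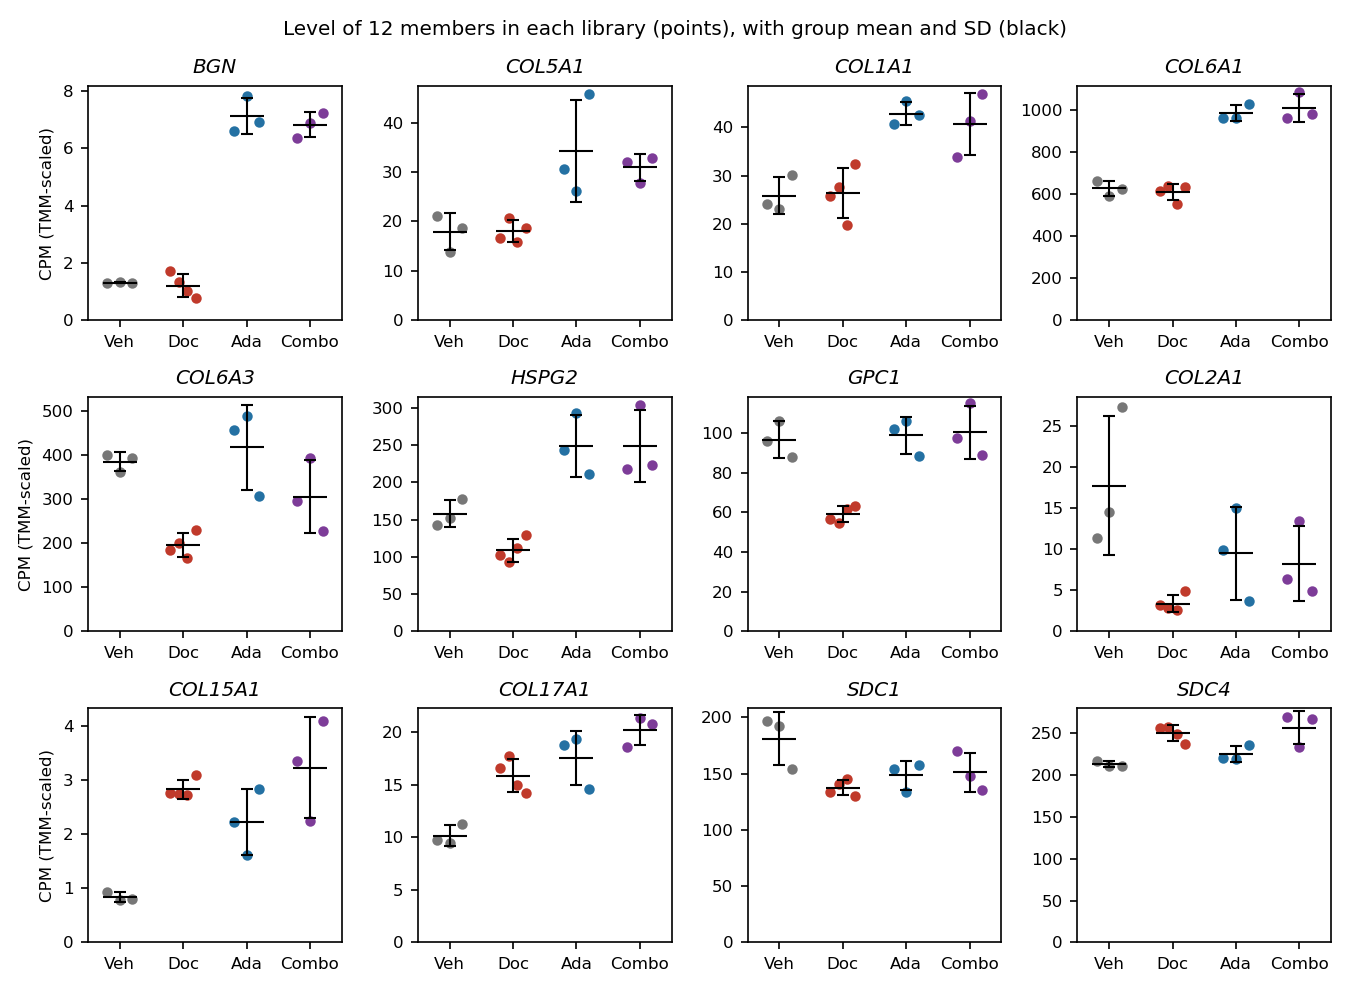
CPM of 12 members in each of the 13 libraries (points) by treatment, on linear axes from 0, with the group mean and SD in black. BGN and COL6A1 sit higher in all Adapalene and Combo libraries than in all others, GPC1 is lowest in the 4 Docetaxel libraries, and COL6A3 is there below all Vehicle libraries.

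Docetaxel against Vehicle asks what the taxane alone did to these genes. It lowered the cartilage fibrillar collagens COL2A1 and COL11A1, the type VI chain COL6A3, the transmembrane collagen COL13A1 and the heparan sulfate cores GPC1, GPC4, SDC1 and HSPG2, and raised COL15A1, COL16A1, COL17A1, COL4A6 and SDC4. In all, 17 of the 39 tested members changed by edgeR's quasi-likelihood test (Benjamini-Hochberg adjusted p under 0.05 over 15734 genes), 6 upward and 11 downward, beside 25.9% of all tested genes, 13.2% upward and 12.8% downward. That is 43.6% of the members. The sixth upward call was COL28A1, which passed the filter on low counts only through its Docetaxel libraries and had to be high there. COL4A4, also tested, passed in the same way. The median log2 fold change over the 39 tested members was -0.09, against -0.02 for all tested genes. Summed over all collagen genes, the level was 2830 ± 106 CPM (SD, n = 3) in Vehicle and 2320 ± 173 (n = 4) in Docetaxel. The highest Docetaxel library, 2540, was below the lowest Vehicle library, 2710. The count of changed members dropped to 11 when Docetaxel replicate 2 was left out. Over all tested genes the calls then fell too, from 4082 to 2660.

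Adapalene against Vehicle asks the same of the retinoid. BGN rose most, and COL15A1, COL9A2, COL16A1, COL5A1, COL17A1, COL1A1, HSPG2, COL6A1, SDC2 and COL6A2 rose too, while COL11A1 fell. The count was 12 of 39 changed members by edgeR (30.8%), 11 upward and 1 downward, beside 18.4% of all tested genes, 9.25% upward and 9.16% downward. The median over the members was 0.26 on the log2 scale, against 0.02 over all genes. Collagen genes summed to 3450 ± 230 CPM (SD, n = 3), and the lowest Adapalene library, 3230, was above the highest Vehicle library, 2890. Nearly the whole rise, from 2830 ± 106 in Vehicle, lay in the type VI genes. These went from 1620 ± 67.9 CPM in Vehicle to 2220 ± 156 in Adapalene (SD, n = 3 each). The 12 proteoglycans summed to 1600 ± 54.3 CPM, against 1450 ± 26 in Vehicle and 1290 ± 65.9 in Docetaxel. Leaving out single libraries gave 8 (without Vehicle replicate 2) to 14 changed members. Without Vehicle replicate 2 the calls over all tested genes fell too, from 2896 to 1609.

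Combo against Vehicle gave 14 of 39 changed members by edgeR (35.9%), 12 upward and 2 downward, beside 25.8% of all tested genes, 13.5% upward and 12.3% downward. The 11 members that rose with adapalene alone also rose here, joined by SDC4, and COL11A1 and COL5A2 fell. Both comparisons use the same 3 Vehicle libraries. The median over the members was 0.21, against 0.02 over all genes. When replicate numbers entered as a block, the edgeR test also called COL13A1 (log2 fold change -0.55, adjusted p = 0.0316) and COL8A1 (-0.51, adjusted p = 0.0418), for 16 in all.

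**Figure D2:**
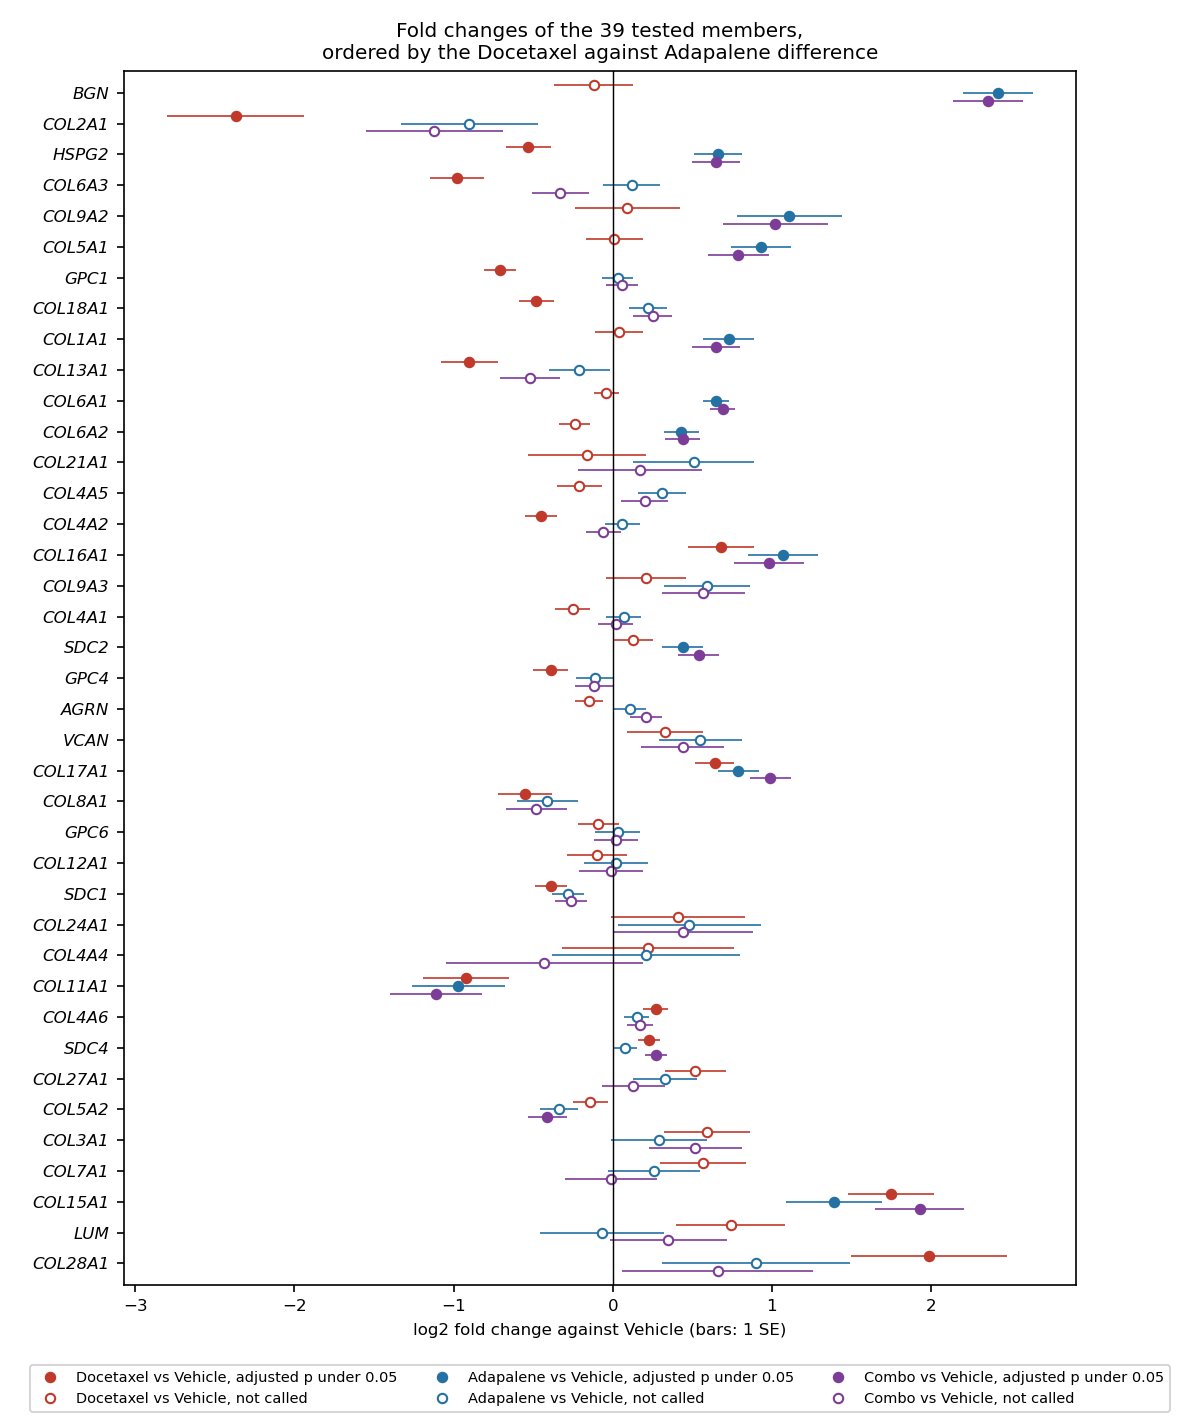
Log2 fold change of each tested member against Vehicle for Docetaxel, Adapalene and Combo, with bars of 1 SE from the edgeR fit and filled points for adjusted p under 0.05; genes are ordered by the Docetaxel against Adapalene difference. Adapalene and Combo points lie mostly right of 0, with BGN at 2.42 and 2.36, while the Docetaxel points spread to both sides, from -2.37 for COL2A1 to 1.99 for COL28A1.

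Among the fibrillar collagens, COL2A1, the collagen of cartilage, had the largest fall with docetaxel. Its levels were 11.4, 14.6 and 27.3 CPM in Vehicle, 3.27, 2.89, 2.56 and 4.87 in Docetaxel, 9.91, 15 and 3.67 in Adapalene and 6.35, 13.5 and 4.92 in Combo. All 4 Docetaxel libraries were below all Vehicle libraries, and the Adapalene and Combo libraries overlapped with Vehicle or Docetaxel. The log2 fold change of Docetaxel against Vehicle was -2.37 (SE 0.43, edgeR adjusted p = 0.00112), and it was -1.92 without Vehicle replicate 3, the library with the highest level. The comparisons with Vehicle did not pass the test for Adapalene (-0.90, edgeR adjusted p = 0.152) or Combo (-1.12, adjusted p = 0.0665). They were -0.45 and -0.66 without Vehicle replicate 3, and -0.07 and -0.41 without the 4 libraries with over 2% mitochondrial counts. The Combo value was called without Combo replicate 2 (-1.66, edgeR adjusted p = 0.0145), Adapalene replicate 2 (adjusted p = 0.0434) or Adapalene replicate 3 (adjusted p = 0.0227). Without the 4 libraries with over 2% mitochondrial counts, COL2A1 was higher in Combo than in Docetaxel by 1.75 (edgeR adjusted p = 0.00172), a difference of 1.26 that missed the threshold with all libraries (adjusted p = 0.0534).

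COL11A1, a minor fibrillar chain that joins type II fibres in cartilage, was lower under every treatment. It stood at 9.56, 10.3 and 14.4 CPM in Vehicle, at 5.26, 5.14, 6.22 and 7.55 in Docetaxel, at 5.39, 8.95 and 3.17 in Adapalene and at 3.74, 6.75 and 5.52 in Combo. No treated library reached the lowest Vehicle library. The log2 fold changes were -0.92 (SE 0.27, edgeR adjusted p = 0.0208), -0.97 (SE 0.29, adjusted p = 0.0325) and -1.11 (SE 0.29, adjusted p = 0.0125) for Docetaxel, Adapalene and Combo. These calls did not hold without some single libraries: without Vehicle replicate 3 the edgeR adjusted p values were 0.103, 0.113 and 0.0555, and without the 4 libraries with over 2% mitochondrial counts the Adapalene change was -0.48 (adjusted p = 0.211).

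COL1A1, the main chain of type I collagen, rose with adapalene. Vehicle libraries held 24.1, 23.1 and 30.2 CPM, Docetaxel libraries 25.7, 27.7, 19.8 and 32.4, Adapalene libraries 40.6, 45.4 and 42.5, and Combo libraries 33.9, 41.4 and 46.8. Every library with adapalene was above every library without it. Adapalene exceeded Vehicle by 0.73 (log2; SE 0.16, edgeR adjusted p = 0.00531) and Combo exceeded Vehicle by 0.65 (SE 0.15, adjusted p = 0.00663).

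COL5A1 and COL5A2 encode the chains of type V collagen, which sets the width of type I fibres, and in Combo they were called in opposite directions. COL5A1 measured 21.2, 13.9 and 18.7 CPM in Vehicle, 16.6, 20.8, 15.9 and 18.7 in Docetaxel, 30.7, 26.1 and 45.8 in Adapalene and 32.1, 27.8 and 32.9 in Combo. It rose by 0.93 with Adapalene (SE 0.19, edgeR adjusted p = 0.00359) and by 0.79 with Combo (SE 0.19, adjusted p = 0.0064), with no overlap between libraries with and without adapalene. COL5A2 measured 220, 227 and 234 CPM in Vehicle, 203, 189, 202 and 227 in Docetaxel, 179, 212 and 145 in Adapalene and 172, 191 and 148 in Combo. It fell by 0.41 in Combo (SE 0.12, edgeR adjusted p = 0.0185, but 0.0915 without Combo replicate 3), and in Adapalene its value was -0.34 (adjusted p = 0.0545). The Adapalene value was called by DESeq2 (adjusted p = 0.0396), and by edgeR with the replicate block (0.0384), with no filter (0.00185) or without Adapalene replicate 2 (-0.48, 0.0121), Combo replicate 2 (0.0439) or Combo replicate 3 (0.0403). The ratio of COL5A1 to COL5A2 per kilobase was 0.0408 to 0.0644 in Vehicle and 0.0525 to 0.0734 in Docetaxel, against 0.0823 to 0.21 in Adapalene and 0.0969 to 0.148 in Combo.

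The remaining fibrillar collagens did not pass the test against Vehicle in any group. COL3A1, the partner of type I collagen in soft tissues and a fibroblast marker, held only 14 to 41 counts per library, 0.994 to 2.97 CPM, and its Docetaxel value was 0.59 (SE 0.27, edgeR adjusted p = 0.128). COL27A1 was at 5.13 ± 0.578 CPM (SD, n = 3) in Vehicle and 7.34 ± 1.77 (n = 4) in Docetaxel, a log2 difference of 0.52 (edgeR adjusted p = 0.0505). COL24A1 stayed between 0.511 and 1.76 CPM in all libraries.

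Type VI collagen gave the most abundant members per kilobase. COL6A1 (GRCh38 chr21:45981737-46005050, plus strand, GENCODE 29) measured 666, 593 and 627 CPM in Vehicle, 618, 640, 556 and 637 in Docetaxel, 963, 966 and 1030 in Adapalene and 964, 1090 and 982 in Combo. Every library with adapalene was above every library without it, and Docetaxel overlapped with Vehicle. COL6A1 rose by 0.65 with Adapalene (SE 0.08, edgeR adjusted p = 0.000168) and by 0.69 with Combo (SE 0.08, adjusted p = 6.01e-05). COL6A2, its neighbour at chr21:46098097-46132849 on the same strand, measured 621, 598 and 614 CPM in Vehicle, 492, 506, 487 and 584 in Docetaxel, 818, 918 and 727 in Adapalene and 727, 962 and 792 in Combo. Docetaxel libraries lay below and adapalene libraries above the Vehicle range. COL6A2 rose by 0.43 with Adapalene (SE 0.11, edgeR adjusted p = 0.0148) and by 0.44 with Combo (SE 0.11, adjusted p = 0.00886). Its Docetaxel value of -0.24 was not called. It was -0.30 and called without the 4 libraries with over 2% mitochondrial counts (edgeR adjusted p = 0.0393) and with the replicate block (adjusted p = 0.0321). Both of these settings set aside Docetaxel replicate 4, the block because no other group has that number. The Docetaxel value was also called by edgeR with no filter (0.0216) or with only the 2 groups in the fit (0.0417). The Adapalene call was lost without Vehicle replicate 2 (adjusted p = 0.0579) or Adapalene replicate 2 (adjusted p = 0.0595).

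COL6A3, whose gene lies apart from that pair at chr2:237324003-237414375 on the minus strand, fell with docetaxel. Its levels were 400, 361 and 393 CPM in Vehicle, 184, 200, 166 and 230 in Docetaxel, 457, 487 and 307 in Adapalene and 296, 392 and 227 in Combo. The Docetaxel libraries were all below the Vehicle libraries, Adapalene spread to both sides of Vehicle, and Combo reached from the Docetaxel into the Vehicle range. Docetaxel lowered COL6A3 by 0.98 on the log2 scale (SE 0.17, edgeR adjusted p = 0.000798), to 50.7% of Vehicle. Combo stood above Docetaxel by 0.65 (SE 0.17, edgeR adjusted p = 0.0126, but 0.0882 without Combo replicate 2). The ratio of COL6A3 to COL6A1 per kilobase was 0.164 to 0.171 in Vehicle. It was 0.0811 to 0.0983 in Docetaxel, 0.0816 to 0.137 in Adapalene and 0.063 to 0.098 in Combo, below the Vehicle range in every treated library. COL6A3 is on the list of fibroblast markers. Of that list's genes outside the members, only FAP was tested, at levels of at most 1.28 CPM. It passed the filter only through Docetaxel and had to be high there, so it gives no comparison for COL6A3.

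**Figure D3:**
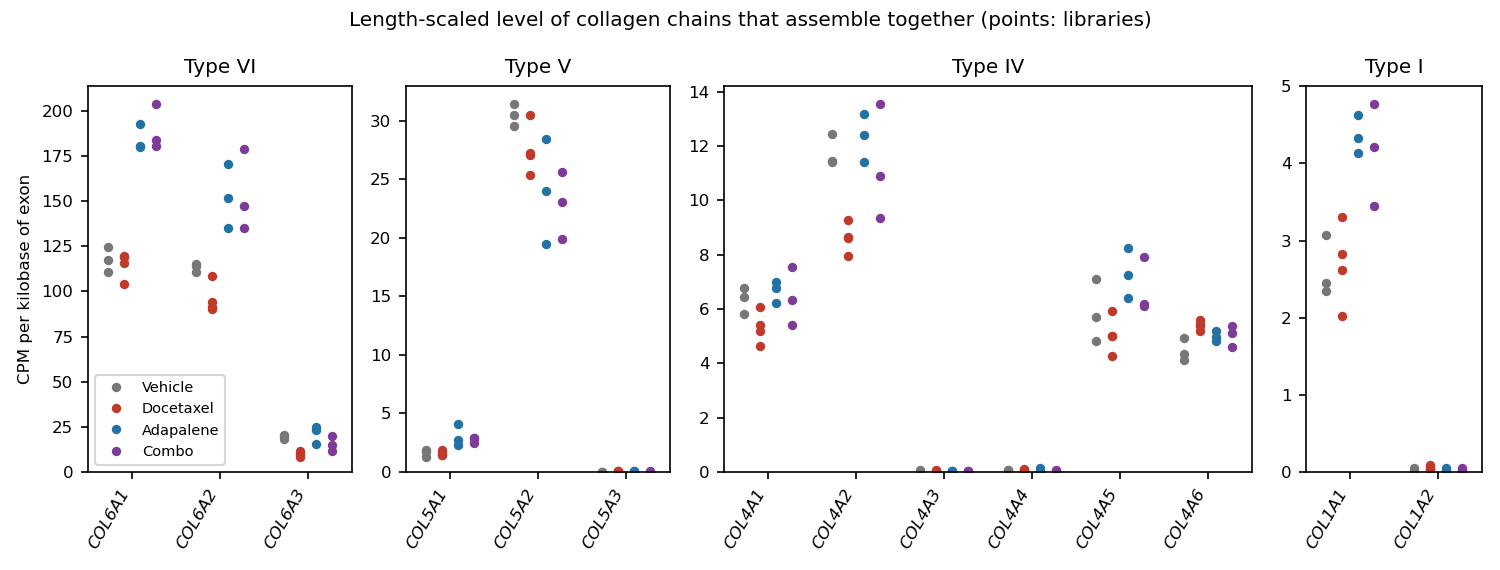
Level in CPM per kilobase of exon of the chains of type VI, V, IV and I collagen in each library (points, coloured by treatment), on linear axes from 0. COL6A1 and COL6A2 sit higher in Adapalene and Combo than in Vehicle, COL6A3 is below Vehicle in all Docetaxel libraries, and COL5A3, COL4A3, COL4A4 and COL1A2 lie near 0 beside their partners.

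The last tested gene of this class was COL7A1, the collagen of the anchoring fibrils under skin and other epithelia. It stood at 6.14 ± 1.45 CPM (SD, n = 3) in Vehicle and 9.11 ± 2.11 (n = 4) in Docetaxel, and the log2 difference of 0.57 did not pass (SE 0.27, edgeR adjusted p = 0.131).

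In the network-forming class, COL4A1 and COL4A2 make the common type IV collagen of basement membranes, and in RefSeq their starts lie head to head with 126 bases between them on chromosome 13. COL4A2 measured 240, 221 and 220 CPM in Vehicle, 167, 166, 153 and 179 in Docetaxel, 239, 254 and 220 in Adapalene and 210, 261 and 180 in Combo. Each Docetaxel library was below each library of the other groups. Docetaxel lowered it by 0.45 (SE 0.10, edgeR adjusted p = 0.00472). COL4A1 measured 99.9, 85.8 and 94.8 CPM in Vehicle, 79.7, 76.3, 68.5 and 89.7 in Docetaxel, 100, 103 and 91.7 in Adapalene and 93.2, 111 and 79.7 in Combo. The Docetaxel and Vehicle ranges overlapped, and the value of -0.25 (SE 0.11, edgeR adjusted p = 0.095) did not pass. It was called without the 4 libraries with over 2% mitochondrial counts (-0.31, edgeR adjusted p = 0.0278), with the replicate block (-0.33, 0.0295), with no filter (0.0237) or without Docetaxel replicate 4 (-0.32, 0.0488). All of these except the fit with no filter left Docetaxel replicate 4 out or gave it its own block term, so they are not separate checks. Against Adapalene, Docetaxel was lower in both genes, by 0.52 in COL4A2 (edgeR adjusted p = 0.00168) and by 0.32 in COL4A1 (adjusted p = 0.0342, lost without any of several single libraries, up to 0.113 without Adapalene replicate 2).

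COL4A5 and COL4A6, the X-linked pair of type IV chains whose RefSeq starts lie 379 bases apart and part of whose shared region is printed above, were not both called with docetaxel, and the difference between them was not tested. COL4A6 measured 40.2, 38.4 and 45.9 CPM in Vehicle, 50.7, 51.9, 49.9 and 48.1 in Docetaxel, 46.0, 44.6 and 48.0 in Adapalene and 49.9, 47.3 and 42.7 in Combo. It rose by 0.27 with Docetaxel (SE 0.08, edgeR adjusted p = 0.0194). That call did not hold without Vehicle replicate 1 (adjusted p = 0.0752), Vehicle replicate 2 (0.11) or Docetaxel replicate 2 (0.055). COL4A5 measured 67.6, 57.2 and 84.1 CPM in Vehicle, 59.2, 59.5, 50.8 and 70.4 in Docetaxel, 86.2, 97.8 and 76.0 in Adapalene and 72.5, 93.7 and 73.3 in Combo. Vehicle overlapped with every group, and no comparison with Vehicle passed with all libraries (edgeR adjusted p = 0.266, 0.146 and 0.343). Without the 4 libraries with over 2% mitochondrial counts, COL4A5 rose by 0.56 with Adapalene (edgeR adjusted p = 0.00857) and by 0.41 with Combo (adjusted p = 0.0384). The Adapalene value was also called without Vehicle replicate 3 (0.47, edgeR adjusted p = 0.0424) or with no filter (adjusted p = 0.0389). COL4A6 rose with Combo by 0.31 without those 4 libraries (edgeR adjusted p = 0.019). The ratio of COL4A5 to COL4A6 per kilobase was 0.796 to 1.14 in Docetaxel and 1.14 to 1.72 in the other 3 groups.

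COL8A1, a short-chain collagen of vessel walls and the cornea, measured 41.4, 45.4 and 49.2 CPM in Vehicle, 32.3, 29.9, 30.0 and 32.1 in Docetaxel, 33.8, 45.0 and 23.7 in Adapalene and 32.8, 40.5 and 24.1 in Combo. The Docetaxel libraries were all lower, by 0.55 on the log2 scale (SE 0.17, edgeR adjusted p = 0.0306), and the call was lost when any of 6 single libraries was left out (adjusted p up to 0.0993, without Vehicle replicate 3). COL4A4, a chain of the kidney basement membrane, held 2 to 16 counts per library, passed the filter only through Docetaxel and passed the test in no comparison.

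The fibril-associated collagens sit on the surface of other fibres. COL16A1 measured 7.53, 7.31 and 9.05 CPM in Vehicle, 12.8, 12, 10.1 and 16.1 in Docetaxel, 15.5, 12.6 and 22.4 in Adapalene and 14.8, 12.7 and 19.8 in Combo. All treated libraries exceeded all Vehicle libraries. The log2 rises were 0.68 (SE 0.21, edgeR adjusted p = 0.026), 1.07 (SE 0.22, adjusted p = 0.00431) and 0.98 (SE 0.22, adjusted p = 0.0049) for Docetaxel, Adapalene and Combo. The Docetaxel call was lost without Docetaxel replicate 1 (0.0536), Docetaxel replicate 4 (0.0739), Vehicle replicate 1 (0.0799) or Vehicle replicate 2 (0.0993).

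COL9A2, a chain of the type IX collagen that coats cartilage fibres, was low: 1.52, 1.92 and 1.55 CPM in Vehicle, 1.92, 1.97, 0.596 and 2.43 in Docetaxel, 2.87, 4.52 and 3.42 in Adapalene and 2.80, 3.92 and 3.43 in Combo. The libraries with adapalene were all higher, by 1.11 in Adapalene (SE 0.33, edgeR adjusted p = 0.0312) and 1.02 in Combo (SE 0.33, adjusted p = 0.0345). Neither call held without the 4 libraries with over 2% mitochondrial counts (edgeR adjusted p = 0.0731 and 0.115) or without any single Vehicle library (0.0601 to 0.1). COL9A3, another chain of type IX collagen, had values of 0.59 and 0.57 that did not pass, and 45 bases of its exons overlap the antisense gene TCFL5. COL12A1, the most abundant gene of this class at 11.5 CPM per kilobase, stood at 146 ± 18.8 CPM (SD, n = 3) in Vehicle and 137 ± 14.4 (n = 4), 148 ± 49.6 (n = 3) and 145 ± 34.4 (n = 3) in Docetaxel, Adapalene and Combo, differences within the spread between libraries. COL21A1 held 10 to 42 counts per library and did not pass in any comparison.

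Both tested transmembrane collagens changed with docetaxel, in opposite directions. COL13A1, found at cell-matrix contacts, measured 130, 133 and 156 CPM in Vehicle, 75.8, 69.2, 67.0 and 88.3 in Docetaxel, 119, 158 and 84.5 in Adapalene and 83.0, 125 and 85.4 in Combo. Docetaxel lowered it by 0.90 (SE 0.18, edgeR adjusted p = 0.00205) with no overlap with Vehicle. COL17A1, a part of the hemidesmosome that ties epithelial cells to the basement membrane, measured 9.71, 9.44 and 11.3 CPM in Vehicle, 16.6, 17.7, 15 and 14.2 in Docetaxel, 18.8, 19.3 and 14.6 in Adapalene and 18.6, 21.3 and 20.8 in Combo. Every treated library was above every Vehicle library. It rose by 0.64 (SE 0.12, edgeR adjusted p = 0.00194), 0.79 (SE 0.13, adjusted p = 0.0012) and 0.99 (SE 0.13, adjusted p = 0.000122) in Docetaxel, Adapalene and Combo.

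COL15A1 and COL18A1 are the multiplexins, basement membrane collagens that carry glycosaminoglycan chains themselves. COL15A1 was low in Vehicle, at 0.942, 0.781 and 0.806 CPM (11 to 13 counts), and stood at 2.77, 2.75, 2.73 and 3.10 in Docetaxel, 2.23, 1.61 and 2.84 in Adapalene and 3.36, 2.25 and 4.10 in Combo. All treated libraries were higher, and the log2 rises were 1.75 (SE 0.27, edgeR adjusted p = 0.000417), 1.39 (SE 0.30, adjusted p = 0.00546) and 1.93 (SE 0.28, adjusted p = 0.000277). COL18A1, the source of the fragment endostatin, measured 94.2, 107 and 106 CPM in Vehicle, 69.8, 67.5, 70.6 and 85.0 in Docetaxel, 113, 137 and 107 in Adapalene and 104, 143 and 118 in Combo. Docetaxel libraries were lowest, with a fall of 0.48 against Vehicle (SE 0.11, edgeR adjusted p = 0.00655). Its value is uncertain, because 1401 bases of its exons overlap the antisense gene SLC19A1, which held 12824 counts over all libraries, and no source used here gives the strand setting of the counting. COL28A1, grouped here with them, held 1 to 24 counts per library, at 0.580, 0.213 and 0.062 CPM in Vehicle, 1.35, 0.986, 0.596 and 1.46 in Docetaxel, 0.646, 0.484 and 0.417 in Adapalene and 0.374, 0.435 and 0.522 in Combo. Only Docetaxel libraries reached the filter on low counts, so this difference is a description of how the gene entered the test. Its log2 value of 1.99 (SE 0.49, edgeR adjusted p = 0.00878) became 1.31 (adjusted p = 0.0762) without the 4 libraries with over 2% mitochondrial counts and 2.99 without Vehicle replicate 1.

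Of the small leucine-rich proteoglycans, BGN gave the largest rise among all members. Biglycan, its protein, binds collagen fibres and can be shed to signal to immune receptors. Its levels were 1.30, 1.35 and 1.30 CPM in Vehicle, 1.71, 1.34, 1.02 and 0.791 in Docetaxel, 6.61, 7.82 and 6.92 in Adapalene and 6.35, 6.89 and 7.24 in Combo. These are 18 to 21 counts per Vehicle library, 12 to 24 per Docetaxel library and 83 to 102 per library with adapalene. The libraries with adapalene did not overlap with the others, and Docetaxel spread around Vehicle. BGN rose 5.37-fold with Adapalene (log2 2.42, SE 0.22, edgeR adjusted p = 1.7e-05) and 5.15-fold with Combo (2.36, SE 0.22, adjusted p = 1.26e-05). LUM, which also spaces collagen fibres, held 8 to 27 counts per library, and its highest value against Vehicle, 0.74 in Docetaxel, did not pass (SE 0.34, edgeR adjusted p = 0.117).

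Among the large and basement membrane proteoglycans, HSPG2 moved with each drug in a different direction. Perlecan, its product, links laminin and type IV collagen networks. HSPG2 measured 143, 152 and 178 CPM in Vehicle, 102, 93.3, 112 and 129 in Docetaxel, 243, 293 and 211 in Adapalene and 218, 304 and 223 in Combo. The Docetaxel libraries were all below Vehicle and the libraries with adapalene all above it. Docetaxel lowered it by 0.53 (SE 0.14, edgeR adjusted p = 0.0117, but 0.0573 without Vehicle replicate 3), and it rose by 0.66 in Adapalene (SE 0.15, adjusted p = 0.00746) and 0.65 in Combo (SE 0.15, adjusted p = 0.00522). AGRN, the basement membrane proteoglycan that clusters receptors at the nerve-muscle junction, measured 676, 717 and 698 CPM in Vehicle, 624, 602, 563 and 723 in Docetaxel, 733, 796 and 729 in Adapalene and 697, 870 and 856 in Combo. No comparison of AGRN with Vehicle passed, and Combo exceeded Docetaxel by 0.36 (SE 0.09, edgeR adjusted p = 0.0114, 0.0611 without Combo replicate 2). VCAN, a large chondroitin sulfate proteoglycan of loose matrix, ranged from 20.9 to 53.4 CPM and passed the test in no comparison.

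All 6 cell-surface heparan sulfate proteoglycans were tested. GPC1, a lipid-anchored core that presents growth factors, measured 96.0, 106 and 87.8 CPM in Vehicle, 56.7, 54.7, 61.8 and 63.0 in Docetaxel, 102, 106 and 88.2 in Adapalene and 97.3, 115 and 88.8 in Combo. The 4 Docetaxel libraries were below all others, and the other 3 groups shared 1 range. Docetaxel lowered GPC1 by 0.71 (SE 0.10, edgeR adjusted p = 0.000131), to 61.2% of Vehicle. GPC4 measured 42.5, 42.2 and 42.5 CPM in Vehicle, 34.4, 28.0, 32.1 and 34.7 in Docetaxel, 39.8, 46.7 and 31.7 in Adapalene and 39.3, 42.5 and 35.5 in Combo. It fell by 0.39 with Docetaxel (SE 0.11, edgeR adjusted p = 0.0193), a call that missed the threshold without Docetaxel replicate 2 (0.0683), Vehicle replicate 1 (0.0501) or Vehicle replicate 2 (0.0573). GPC6 was at 8.86 to 12.6 CPM in all libraries and passed the test in no comparison.

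The syndecans, the membrane-spanning heparan sulfate cores, went in different directions. SDC1, the epithelial syndecan, measured 197, 192 and 154 CPM in Vehicle, 134, 141, 145 and 130 in Docetaxel, 154, 134 and 158 in Adapalene and 170, 148 and 135 in Combo. Docetaxel libraries were all below Vehicle, by 0.39 (SE 0.10, edgeR adjusted p = 0.0082). Its values of -0.28 in Adapalene and -0.26 in Combo did not pass, but without the 4 libraries with over 2% mitochondrial counts they were called (-0.43, edgeR adjusted p = 0.00458, and -0.29, adjusted p = 0.0332). Without Vehicle replicate 3 they were called too (edgeR adjusted p = 0.0172 and 0.017). SDC4, which sits in focal adhesions, measured 217, 211 and 211 CPM in Vehicle, 257, 258, 249 and 237 in Docetaxel, 221, 219 and 236 in Adapalene and 270, 234 and 267 in Combo. Its rises of 0.23 in Docetaxel (SE 0.07, edgeR adjusted p = 0.0199) and 0.27 in Combo (SE 0.07, adjusted p = 0.012) were small, and they missed the threshold when single libraries were left out, up to 0.0781 without Vehicle replicate 2 for Docetaxel and 0.0502 without Combo replicate 1 or 3 for Combo. SDC2, the mesenchymal syndecan, measured 29.6, 26.1 and 21.6 CPM in Vehicle, 29.9, 30.7, 26.1 and 26.0 in Docetaxel, 34.3, 28.6 and 41.5 in Adapalene and 38.2, 37.1 and 36.7 in Combo. All Combo libraries were above all Vehicle and Docetaxel libraries, a rise of 0.54 over Vehicle (SE 0.13, edgeR adjusted p = 0.00772). Its Adapalene rise of 0.44 (edgeR adjusted p = 0.032) was 0.18 (adjusted p = 0.293) without the 4 libraries with over 2% mitochondrial counts, and its adjusted p was up to 0.128 with single libraries left out (without Adapalene replicate 3).

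**Figure D4:**
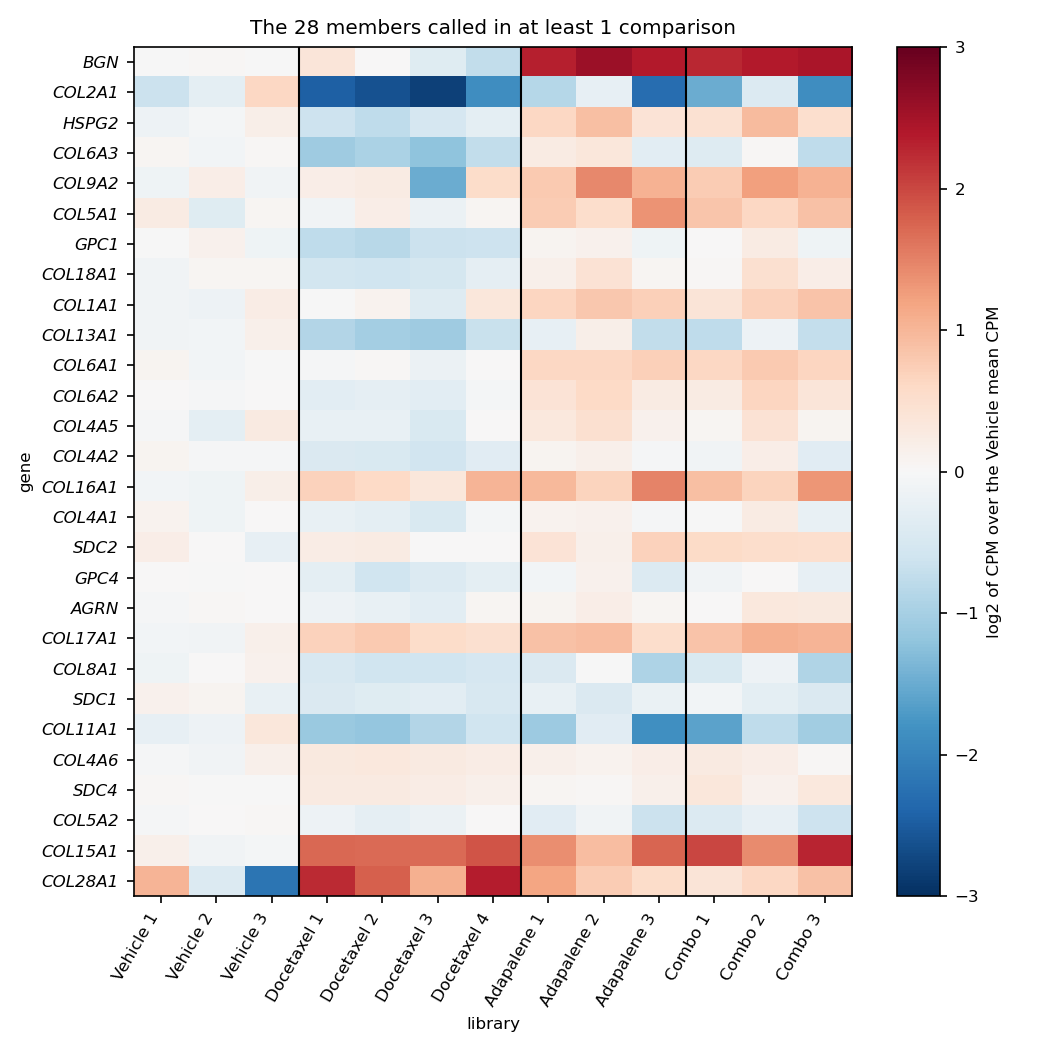
Log2 of the CPM of the 28 members called in at least 1 comparison (rows) in each of the 13 libraries (columns) over the mean CPM of the Vehicle libraries, on a colour scale limited to ±3. BGN, COL6A1, COL1A1 and COL5A1 are above Vehicle in all Adapalene and Combo columns, and COL2A1, COL6A3, COL13A1 and GPC1 are below it in all 4 Docetaxel columns.

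Combo against Docetaxel shows what adding adapalene did on top of the taxane. BGN (2.49), HSPG2 (1.18), COL9A2 (0.93), COL5A1 (0.78), GPC1 (0.76), COL18A1 (0.73), COL6A1 (0.72), COL6A2 (0.68), COL6A3 (0.65) and COL1A1 (0.62) were higher on the log2 scale, as were COL4A5, SDC2, COL4A2, AGRN and COL17A1 by 0.35 to 0.41. COL28A1 was at -1.33, on few counts, having passed the filter only through Docetaxel. That is 16 of 39 members by edgeR (41.0%), 15 upward and 1 downward, beside 24.0% of all tested genes, 12.8% upward and 11.2% downward. The median over the members was 0.30, against 0.01 over all genes. Without Combo replicate 2 the count was 8 (adjusted p under 0.05 in the same edgeR test), and over all tested genes the calls fell from 3783 to 2292. COL9A2, COL4A5, COL4A2, COL6A3, AGRN, SDC2, COL17A1 and COL28A1 were then no longer called. GPC1, lower with docetaxel alone, was in Combo at 100 ± 13.4 CPM (SD, n = 3), against 96.6 ± 9.08 (n = 3) in Vehicle.

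Docetaxel against Adapalene, the direct comparison of the single drugs, called 16 of 39 members (41.0%), all lower in Docetaxel, beside 29.7% of all tested genes by edgeR, 14.1% higher and 15.6% lower in Docetaxel. The median over the members was -0.29, against -0.01 over all genes. The largest differences were BGN (-2.55, edgeR adjusted p = 1.53e-06), COL2A1 (-1.47), HSPG2 (-1.19, adjusted p = 3.88e-05) and COL6A3 (-1.09, adjusted p = 0.000306). COL2A1 was not called without Adapalene replicate 2 (-1.0, edgeR adjusted p = 0.15) and was at -2.08 without the 4 libraries with over 2% mitochondrial counts. COL9A2, COL5A1, GPC1, COL18A1, COL1A1, COL6A1, COL13A1, COL6A2, COL4A5, COL4A2, COL4A1 and AGRN were lower by 0.26 to 1.02. Without Adapalene replicate 2, COL9A2, COL13A1, COL4A5, COL4A1 and AGRN were not called either, with edgeR adjusted p of 0.053 to 0.166.

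Combo against Adapalene, which asks what docetaxel added to the retinoid, called 0 of the 39 members by edgeR, and DESeq2 also called 0, beside 0.0381% of all tested genes. At an unadjusted p under 0.05 edgeR had 3 members: SDC4 (0.19), COL15A1 (0.54) and COL6A3 (-0.45), with adjusted p of 0.838, 0.98 and 0.881. How many of all tested genes met that cut was not counted, so the 3 are no finding about the members. The median over the members was -0.05, against -0.01 over all genes.

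The interaction of the drugs, which tests whether the effect of docetaxel differed with and without adapalene, was called for 1 of 39 members by edgeR (2.56%), beside 1.44% of all tested genes, 0.210% with a positive and 1.23% with a negative term. That member was GPC1, at 0.73 (SE 0.14, edgeR adjusted p = 0.0181): docetaxel changed it by -0.71 without adapalene and by 0.02 with it. The call was lost without Vehicle replicate 1 (adjusted p = 0.0518), Vehicle replicate 2 (0.0723) or Docetaxel replicate 1 (0.0539). The largest other terms did not pass: COL28A1 at -2.23 (SE 0.75, edgeR adjusted p = 0.147), COL2A1 at 2.16 (SE 0.62, adjusted p = 0.0944) and COL15A1 at -1.20 (SE 0.38, adjusted p = 0.118). At an unadjusted p under 0.05 there were 15 members. The share of all tested genes at that cut was not counted, so this number has no background to be read against. Without the 4 libraries with over 2% mitochondrial counts, edgeR also called COL2A1 (1.82, adjusted p = 0.035), COL17A1 (-0.72, adjusted p = 0.0398) and SDC1 (0.61, adjusted p = 0.0176).

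The enzymes that fold, crosslink and cut collagens were read from a list of 30 genes, of which 29 were tested. With docetaxel 4 rose and 9 fell (median -0.13), with adapalene 7 rose and 1 fell (median 0.10), and with Combo 6 rose and 3 fell (median 0.08). These are 44.8%, 27.6% and 31.0% of the list, beside 25.9%, 18.4% and 25.8% of all tested genes. The highest docetaxel value of the list was that of ADAMTS14, from 1.8 ± 0.631 CPM (SD, n = 3) to 6.02 ± 2.37 (n = 4; log2 1.74). LOXL1, a lysyl oxidase that crosslinks elastin and collagen, fell from 253 ± 32.9 CPM (SD, n = 3) to 110 ± 17.1 (n = 4) with docetaxel (log2 -1.20, SE 0.18, edgeR adjusted p = 0.00036). P4HA3, a subunit of the prolyl hydroxylase that stabilises the helix, rose by 0.93 with Adapalene (edgeR adjusted p = 0.00141) and by 1.01 with Combo (adjusted p = 0.00043). Of 34 genes that build or edit glycosaminoglycan chains, 32 were tested: 4 rose and 8 fell with docetaxel, and 4 rose and 4 fell with each of Adapalene and Combo. These are 37.5%, 25% and 25% of the list, beside 25.9%, 18.4% and 25.8% of all tested genes, so the Combo share is about that of all genes. SULF2, which removes sulfate from heparan sulfate outside the cell, fell with docetaxel from 138 ± 17.5 (SD, n = 3) to 66.9 ± 11.1 CPM (n = 4; log2 -1.04, SE 0.25, edgeR adjusted p = 0.00657).

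Of 9 collagen receptors 6 were tested, and 3 changed with docetaxel, 2 with Adapalene and 2 with Combo (50%, 33.3% and 33.3%, beside 25.9%, 18.4% and 25.8% of all tested genes). DDR2, a receptor tyrosine kinase for fibrillar collagen, rose with docetaxel from 2.5 ± 0.74 (SD, n = 3) to 11.9 ± 3.18 CPM (n = 4; log2 2.23, SE 0.32, edgeR adjusted p = 0.000194), and stood at 4.69 ± 1.96 (n = 3) in Combo. MRC2, which takes up collagen for degradation, fell with docetaxel (-0.57, SE 0.08, edgeR adjusted p = 0.000232) and rose with Adapalene (0.87, SE 0.09, adjusted p = 3.51e-05) and Combo (0.79, SE 0.09, adjusted p = 3.75e-05). ITGA1, an integrin chain that binds type IV collagen, rose in Docetaxel (0.85), Adapalene (1.27) and Combo (1.42), each by edgeR. Of 19 further proteoglycans, 10 were tested, and 1 rose and 1 fell with docetaxel, 3 rose with Adapalene and 4 rose with Combo. These are 20%, 30% and 40%, beside 25.9%, 18.4% and 25.8% of all tested genes, so the docetaxel share is below that of all genes. CSPG4 rose by 1.08 with Adapalene and by 1.11 with Combo. The highest values of this list were those of SPOCK2, at 2.14 with docetaxel, 1.88 with Adapalene and 2.03 with Combo, on 2 to 31 counts per library. All 13 laminins and nidogens, the other main basement membrane proteins, were tested: 5 rose and 3 fell with docetaxel, 2 rose with Adapalene, and 5 rose and 1 fell with Combo. That is 61.5%, 15.4% and 46.2%, beside 25.9%, 18.4% and 25.8% of all tested genes, and the Adapalene share is near that of all genes. LAMA2 rose by 1.98 with docetaxel (SE 0.19, edgeR adjusted p = 4.92e-06), from 3.4 ± 0.561 (SD, n = 3) to 13.4 ± 2.24 CPM (n = 4).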

How the data were processed

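Gene-level raw counts were deposited by the authors for 13 RNA-seq libraries of PC3 cells, and the values are read counts per gene that were not normalized. The submitters' processing notes name STAR 2.7.10a, FastQC, DESeq2 and the build GRCh38.p13 without their roles, and no source used here gives the counting program or its strand setting. Symbols came from a separate reference list of gene identifiers and names. Coordinates and exon lengths came from GENCODE 29, which lacked 9516 of the 67882 identifiers, and groups came from the labels.

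Genes were filtered with filterByExpr (count minimum 10, total minimum 15), which left 15734, and were scaled by TMM. They were tested with edgeR 4.0.16 (R 4.3.3, glmQLFit and glmQLFTest) in 1 fit of all 13 libraries, with Benjamini-Hochberg adjustment over all genes tested and a threshold of 0.05. CPM values are TMM-scaled, and SD is over libraries. The precision is set by 3 or 4 libraries per group and, for members with few counts, by counting error. Alternatives were DESeq2 1.42.0, its size factors, library totals, no filter, only the 2 groups compared, the replicate number as a block, each library left out, and the 4 libraries with over 2% mitochondrial counts left out. They were run for the members and not for the other genes of the pathway and marker lists. Only Docetaxel had a replicate 4, so the block fitted that library exactly and left it without weight in comparisons that use Docetaxel.

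The members and lists were chosen with earlier results of these data known. Named members are those called in at least 1 of the 7 comparisons, the 5 highest per kilobase and those among the fibroblast markers, and the other tested members are given briefly; of each pathway list at most 3 of the largest called changes in a comparison are named. The labels do not say that replicate numbers pair libraries. As a check, deviations from the group means correlated between same-numbered Vehicle and Combo libraries with r = 0.257, 0.159 and 0.174, each over 0.1, so these 2 groups were treated as possibly paired from the data alone and the blocked calls are given beside Combo against Vehicle. No other pair of groups had every such r over 0.1. Between Adapalene and Combo the values were 0.0202, 0.529 and 0.415, the last 2 higher than any between Vehicle and Combo. Some libraries with different numbers also correlated more, such as Vehicle replicate 3 and Docetaxel replicate 4 (0.341), so the numbers do not settle which libraries were paired.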

Additional observations from a re-analysis of the deposited data

Results flagged for a closer look

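COL15A1, a multiplexin of basement membranes, was at 3.1 CPM in Docetaxel replicate 4, apart from the other 3 Docetaxel libraries, of which the nearest was at 2.77. The gap was 0.876 of the range of the group, above Dixon's critical value for 4 libraries. Chance gives such a gap in about 1 in 20 groups. All 39 tested members were checked this way in Docetaxel, so some such gaps are expected by chance, and this was the only one found. That library also had over 2% mitochondrial counts, and the part of this in the value was not tested.

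The interaction of the drugs differed from 0 for GPC1, the glypican core, at 0.73 on the log2 scale (SE 0.14, edgeR adjusted p = 0.0181): docetaxel lowered it without adapalene and gave a difference of 0.02 with it. The call was lost without Vehicle replicate 1, Vehicle replicate 2 or Docetaxel replicate 1.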

How the results depend on the processing

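Of 76 calls of named members, 45 held under every alternative run, 31 were lost under at least 1, and 0 reversed. With single libraries left out, the number of members called ranged from 11 to 19 for Docetaxel against Vehicle (17 with all libraries; 11 without Docetaxel replicate 2), 8 to 14 for Adapalene against Vehicle (12), 11 to 17 for Combo against Vehicle (14), 8 to 19 for Combo against Docetaxel (16; 8 without Combo replicate 2), 13 to 18 for Docetaxel against Adapalene (16), and 0 to 2 for the interaction (1). It was 0 for the interaction without Vehicle replicate 1, Vehicle replicate 2 or Docetaxel replicate 1, and 2 without Adapalene replicate 2 or Combo replicate 3. Combo against Adapalene gave 0 throughout, except 1 with no filter. The interaction gave 9 members with no filter and 4 without the 4 libraries with over 2% mitochondrial counts. Over all genes it then gave 946 and 633 calls, against 227 in the main fit. Leaving out those 4 libraries ended 7 calls of members and added 17 in all. Over all genes the calls against Vehicle then went from 4082 to 4391 for Docetaxel, 2896 to 3552 for Adapalene and 4058 to 3288 for Combo. They went from 3783 to 4459 for Combo against Docetaxel, 6 to 8 for Combo against Adapalene and 4678 to 6212 for Docetaxel against Adapalene. Calls over all genes also fell for Docetaxel against Vehicle without Docetaxel replicate 2 (4082 to 2660). They fell for Combo against Docetaxel without Combo replicate 2 as well (3783 to 2292). The cause was not tested. DESeq2 ended 1 call, COL28A1 in Combo against Docetaxel (adjusted p = 0.0702).

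With the replicate block, edgeR called 19, 13 and 16 members for Docetaxel, Adapalene and Combo against Vehicle. It called 14, 0, 16 and 1 for Combo against Docetaxel, Combo against Adapalene, Docetaxel against Adapalene and the interaction. Over all genes the main fit gave 4082, 2896, 4058, 3783, 6, 4678 and 227 calls in this order. With the block there were 3792, 2829, 4033, 3558, 2, 4496 and 199. In Combo against Vehicle, the groups treated as possibly paired, it added COL13A1 and COL8A1 and changed no other call. In the comparisons that use Docetaxel, the block also left Docetaxel replicate 4 without weight. Scaling by library totals raised the share of higher calls among all genes with docetaxel from 2073 of 4082 to 2373 of 3839 (61.8%), with Adapalene from 1455 of 2896 to 1830 of 2853 (64.1%) and with Combo from 2117 of 4058 to 2671 of 4062 (65.8%). Among the members it moved the docetaxel split from 6 higher and 11 lower to 7 and 10, ended the COL8A1 call with docetaxel (adjusted p = 0.0509), and left the other splits as they were. Depth limits COL28A1, COL4A4, COL24A1 and LUM in all libraries, BGN in Vehicle and Docetaxel, and COL15A1 and COL9A2 in Vehicle, with fewer than 30 counts per library each. In Docetaxel, COL9A2 held 27, 28, 7 and 40 counts.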
